A study of Homo sapiens with 8 samples.

Results

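The regions called by chromatin immunoprecipitation sequencing (ChIP-seq) around PAX6, SOX1 and ZIC2, a set of regulators of early neural fate, were examined in human embryonic stem cells. Members were the called regions that touch a gene body or its 50 kb flanks on hg19, with gene bodies at chr11:31806340-31839509 for PAX6, chr13:112721913-112726020 for SOX1 and chr13:100634026-100639019 for ZIC2. They numbered 120 of the 972037 regions in the 3 lists analysed: 46 of 420548 for SMAD2 in DMSO cells, 30 of 289380 for TEAD4 in DMSO cells and 44 of 262109 for TEAD4 in SB431542 cells. All cells were WA09, an established line of such cells, cultured on Matrigel with 20% KO serum in medium conditioned by embryonic fibroblasts. They were kept for 4 h with the solvent DMSO or with 10 µM SB431542, a small molecule that blocks the activin, Nodal and TGF-β type I receptors. Each list comes from 1 library of 1 cell line, so the values below carry no replicate error, and groups could not be tested against each other. The input and IgG libraries, and SMAD2 under SB431542, were not analysed here.

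PAX6 is a transcription factor with a paired domain and a homeodomain that acts in the eye, the forebrain and the pancreas, and it marks early neuroectoderm in human cells. SOX1 is an HMG-box factor of the SOXB1 family and one of the first genes used to mark neural progenitors. ZIC2 is a zinc-finger factor of forebrain patterning, and human embryonic stem cells themselves are known to express it. Activin and Nodal signalling, which acts through phosphorylated SMAD2, holds human embryonic stem cells back from neuroectoderm, and SB431542 is widely used in neural induction for that reason. TEAD4 is a DNA-binding partner of YAP and TAZ, the effectors of the Hippo pathway.

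No region of any list lay on the start of PAX6, SOX1 or ZIC2, taken here and below as the outer 5′ end of the hg19 gene body. PAX6 has 9 RefSeq promoters, and regions were not placed against its other starts. The 250 bases before the outermost RefSeq start of each gene are shown because no list held a region at the hg19 start of the gene. They are taken from RefSeq on GRCh38.p14 and written 5′ to 3′ in the direction of transcription, and these positions are not to be compared with the hg19 positions of the regions. Matches to the TEAD letters GGAATG or the SMAD letters GTCTG, on either strand, would stand in capitals, and there were none.
PAX6, chr11:31817962-31818211, minus strand: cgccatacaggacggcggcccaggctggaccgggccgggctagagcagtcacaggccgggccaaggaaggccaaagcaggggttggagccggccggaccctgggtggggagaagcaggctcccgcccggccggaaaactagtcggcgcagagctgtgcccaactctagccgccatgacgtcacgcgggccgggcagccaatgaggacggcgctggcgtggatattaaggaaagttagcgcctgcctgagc
SOX1, chr13:112066899-112067148, plus strand: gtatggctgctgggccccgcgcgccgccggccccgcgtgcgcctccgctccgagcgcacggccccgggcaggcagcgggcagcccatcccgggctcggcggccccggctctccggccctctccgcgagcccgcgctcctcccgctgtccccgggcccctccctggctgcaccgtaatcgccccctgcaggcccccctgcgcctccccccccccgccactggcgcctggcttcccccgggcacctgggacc
ZIC2, chr13:99981534-99981783, plus strand: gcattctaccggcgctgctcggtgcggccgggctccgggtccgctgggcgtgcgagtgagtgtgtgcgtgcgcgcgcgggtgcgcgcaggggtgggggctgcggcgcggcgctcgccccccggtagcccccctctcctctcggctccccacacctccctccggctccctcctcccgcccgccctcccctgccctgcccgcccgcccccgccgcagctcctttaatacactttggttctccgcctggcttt
The TEAD letters were found in 11.9% and the SMAD letters in 38.0% of 35116 RefSeq promoters cut to the same 250 bases. SOX1 and ZIC2 have 1 promoter each in that table and PAX6 has 9, of which 5 held the SMAD letters and 0 the TEAD letters. The 3 sequences are rich in G and C, with 68.4% for PAX6, 82.0% for SOX1 and 75.6% for ZIC2 against a median of 58.0% over all promoters. The CG dinucleotide occurred 22, 31 and 31 times, against a median of 11. The sequences of the called regions themselves were not read here, since no hg19 genome was at hand.

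Each list gives positions only, with no height or score, so the row number is the single measure of a region's standing in its list. It is given here as a row and as a percent of the list, with low values at the head, on the reading that the authors sorted from strong to weak. That reading is not stated in the labels. The row order is coarse. Of all rows, 95.2% (SMAD2), 98.8% (TEAD4 in DMSO) and 97.4% (TEAD4 in SB431542) followed the row before them in descending order of chromosome name and position, as tied values sorted by position would. Rows therefore fall into blocks of descending position, and the median region sat in a block of 328, 3907 and 528 rows in these lists. In the SB431542 list, 100% of blocks of 50 or more rows held a single width, against 0.376% (SMAD2) and 0.231% (TEAD4 in DMSO). Among its regions in the 3 loci, width fell from 198 bp at row 174662 to 99 bp at row 261842. It also fell from 197 bp at row 50639 to 128 bp at row 66983, and from 191 bp at row 80594 to 99 bp at row 108867. A further fall ran from 195 bp at row 118505 to 118 bp at row 155773. Ties may thus span many blocks sorted by width, so middle and late places in that list need not measure strength. Rows within a block are treated as equal below, and block bounds are given for the leading regions. The read depth behind the lists is unknown. The starts of the DMSO lists were all (100%) on a 50 bp grid, against 1.97% in the SB431542 list, so the treatment and the way a list was made cannot be told apart.

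**Figure D1:**
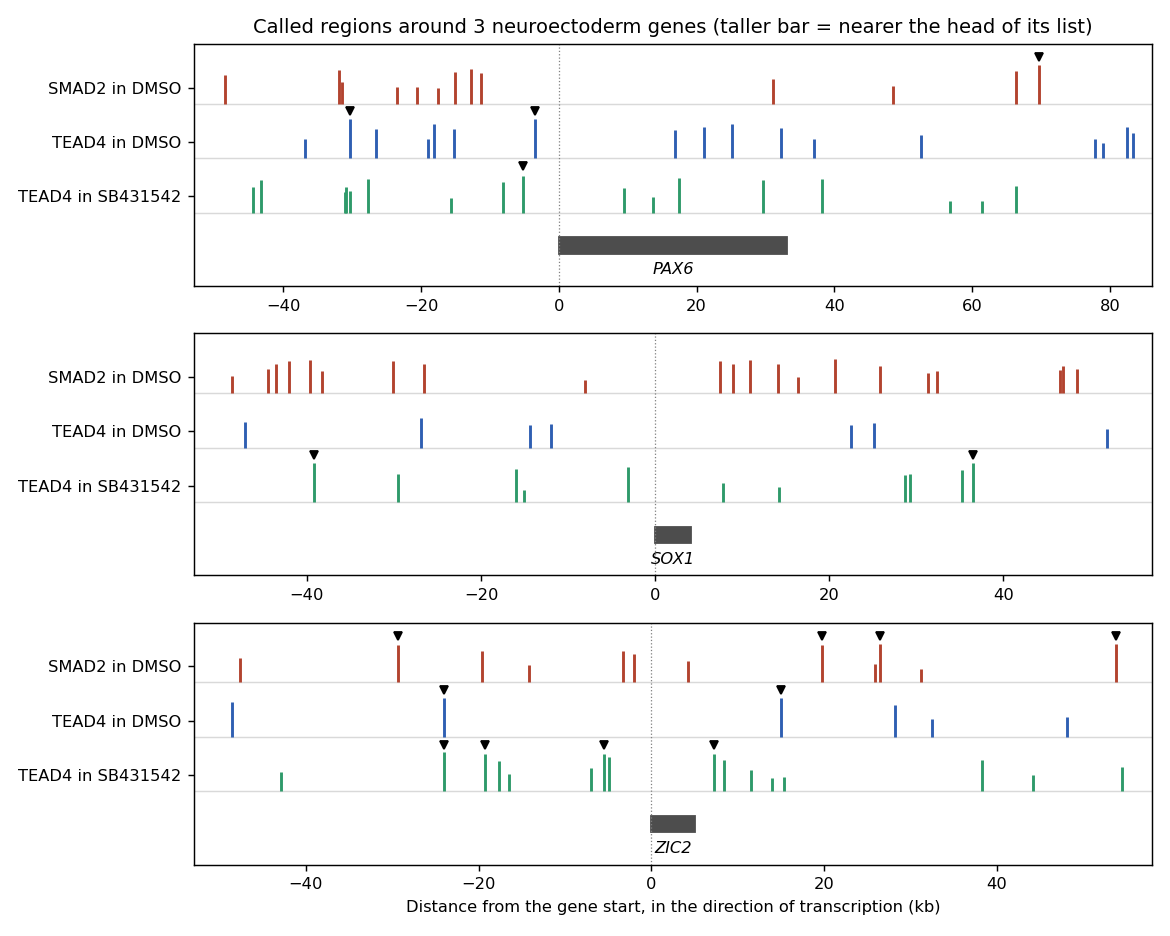
Called regions in the 3 loci by distance from the gene start in kb, in the direction of transcription, 1 row of bars for each list. Bar height rises toward the head of the list (100% of rows at the bottom), triangles mark regions in the first 10% of rows, and the dark box is the gene body. PAX6 and ZIC2 have marked regions in every list, whereas SOX1 has them in the SB431542 list alone, 2 of 11 (exact interval 2.28 to 51.8%).

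The ZIC2 locus held the highest-ranked regions of the 3 loci. The TEAD4 region at chr13:100609851-100610199 was row 931 of the DMSO list (0.322% of rows, block of rows 891 to 943). The TEAD4 region at chr13:100609861-100610197 was row 626 of the SB431542 list (0.239%), in a block of its own. The second lies wholly within the first, and they share 337 bp, or 96.6% of the DMSO region. Their midpoints are 24.0 kb upstream of the ZIC2 start. Among the first 1000 rows for TEAD4 in DMSO, 165 (16.5%) overlapped one of the first 1000 rows of the SB431542 list, so a pair this high in both lists was not rare among leading rows. No SMAD2 region was shared with it. The nearest SMAD2 region, chr13:100614351-100614449, began 4.15 kb away at row 116662, and the better-ranked SMAD2 region on the other side, chr13:100604551-100604799 (row 22842, 5.43%), ended 5.05 kb away.

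A further TEAD4 region of DMSO cells near ZIC2, at chr13:100648801-100649199 (row 6125, 2.12%, block of rows 5617 to 6289), lay 15.0 kb downstream of the start. It did not overlap the SB431542 list, where the nearest region, chr13:100649350-100649463, was 150 bp away and far down the list (row 237474, 90.6%). Of its 16 regions here, the SB431542 list had 4 (25.0%, exact interval 7.27 to 52.4%) in its first 10% of rows, against 10.0% list-wide. Beside the one shared with DMSO cells, these were 3 regions at 19.3 kb and 5.49 kb upstream and 7.26 kb downstream of the start. They were rows 16438, 16437 and 16436 (6.27%), were all 198 bp wide and belonged to a single block, rows 15402 to 16791. A width of 198 bp is common in that list, with 11.3% of its regions. None of these 3 overlapped a region of either DMSO list, where 6.39% of all SB431542 regions overlapped TEAD4 and 5.46% SMAD2. The closest was 166 bp from the SMAD2 region at chr13:100614351-100614449.

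TEAD4 regions of SB431542 cells outnumbered those of DMSO cells at ZIC2, with 16 against 6. The 16 regions are 15.2 per 100 kb (exact Poisson interval 8.71 to 24.7, counting error only), against 8.62 over the whole SB431542 list, and the 6 regions are 5.71 (2.10 to 12.4) against 9.53. Of the 915 windows of the same length on chromosome 13, 4.92% held as many SB431542 regions or more, and 11.9% held as few DMSO regions or fewer. A difference of 10 or more in this direction was found in 0.765% of these windows, where the median difference was -2. The DMSO list was empty over 38.6 kb around the gene, from 100610200 to 100648800, and the SB431542 list had 10 regions in that stretch. Stretches as long or longer made up 14.8% of the TEAD4-free length on the chromosome in DMSO cells, where the median stretch was 5.40 kb. Over chromosomes 1 to 22 and X, 7.94% of windows held as many SB431542 regions. With flanks of 100 kb there were 30 SB431542 against 13 DMSO regions, and with 200 kb 63 against 38. At 200 kb these are 15.6 and 9.38 per 100 kb, so the DMSO density was then near that of its list.

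SMAD2 had 12 regions at ZIC2, or 11.4 per 100 kb (5.91 to 20.0) against 13.8 over its list, and 22.5% of windows held as few or fewer. Of these, 4 were in the first 10% of rows (33.3%, exact binomial interval 9.92 to 65.1%), where 10.0% of the list lies by definition. They were at chr13:100687651-100687949 (row 12033, 2.86%, block of rows 11717 to 12145), chr13:100660301-100660549 (row 17189, 4.09%, block of rows 16889 to 17255), chr13:100604551-100604799 (row 22842, 5.43%, block of rows 22828 to 22844) and chr13:100653701-100653799 (row 23351, 5.55%, block of rows 23346 to 23353). These leading SMAD2 regions stood 53.8 and 26.4 kb downstream, 29.4 kb upstream and 19.7 kb downstream of the ZIC2 start. The SMAD2 region nearest to the start, chr13:100631901-100632099, had its midpoint 2.03 kb upstream and was the closest region of any list to any of the 3 starts, at row 162764 (38.7%). The gene body held 1 SMAD2 region, chr13:100638151-100638249 (row 269324, 64.0%), and no TEAD4 region of either treatment. In the order of genes in RefSeq, ZIC5, another member of the family, is the coding neighbour on the upstream side and PCCA, a subunit of propionyl-CoA carboxylase, the one on the downstream side. The hg19 positions of these neighbours were not at hand. Regions of this locus, the leading TEAD4 pair included, therefore cannot be tied to ZIC2 rather than to a neighbour by position.

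**Figure D2:**
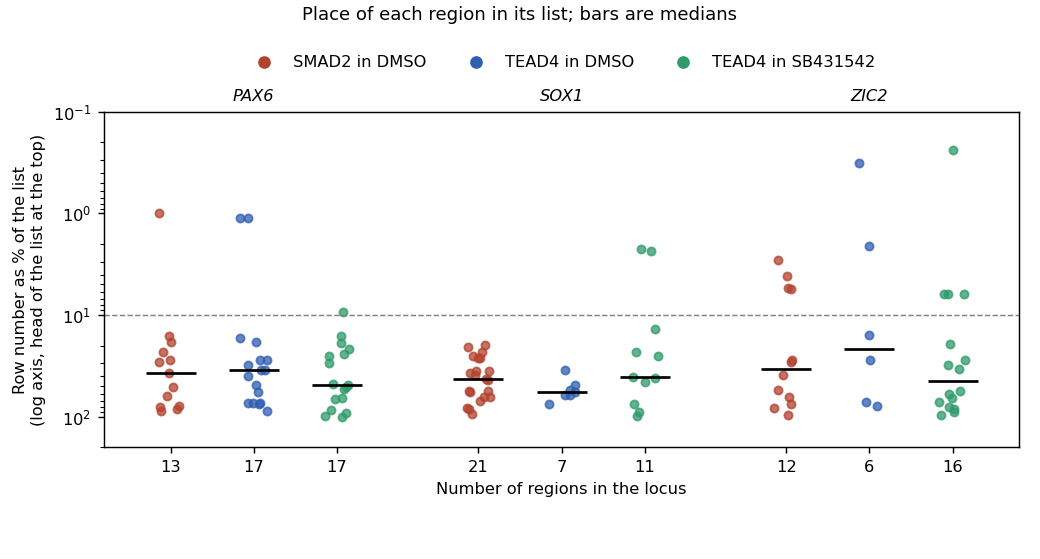
Row number as a percent of the list (log axis, head of the list at the top) for every region, by locus and list; bars are medians, the dashed line is 10% and the numbers under the axis count the regions. The TEAD4 pair at ZIC2 stands highest, at 0.322% and 0.239%, and no SMAD2 or TEAD4 region of DMSO cells at SOX1 is above 10%.

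At PAX6, the leading TEAD4 regions were a pair upstream of the gene in DMSO cells. They were chr11:31842851-31843149 (row 3198) and chr11:31869601-31869899 (row 3197), both at 1.10 to 1.11% of the list, 299 bp wide and in one block, rows 2957 to 3239. Their adjacent row numbers are thus no more than their order on the chromosome. The first had its midpoint 3.49 kb upstream of the PAX6 start, closer than any other region of the 3 lists, and the second 30.2 kb upstream. Only the second overlapped a TEAD4 region of SB431542 cells, chr11:31869665-31869862, which lay wholly within it but was row 170589 (65.1%). The first had no overlap, and its nearest SB431542 region, chr11:31844587-31844784 (row 24297, 9.27%, block of rows 22984 to 24517), was 1.44 kb away. That region was the only one of the SB431542 list at PAX6 in the first 10% of rows.

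The gene body of PAX6 held 4 TEAD4 regions in each treatment, with no overlap between them. In DMSO cells these were chr11:31807151-31807349 (row 90570), chr11:31814251-31814499 (row 48381, the best placed, 16.7%), chr11:31818301-31818549 (row 80446) and chr11:31822601-31822799 (row 115414). In SB431542 cells they were chr11:31809739-31809866 (row 66983), chr11:31822046-31822193 (row 42159, the best placed, 16.1%), chr11:31825836-31825958 (row 224181) and chr11:31829917-31830053 (row 141079). The closest pair, at 31822193 and 31822601, was 407 bp apart. List-wide, 5.69% of DMSO and 6.39% of SB431542 TEAD4 regions overlapped the other treatment. Over the whole locus both TEAD4 lists had 17 regions, or 12.8 per 100 kb (7.44 to 20.4), and 25.0% (DMSO) and 21.1% (SB431542) of the 987 windows of that length on chromosome 11 held as many or more. In 49.1% of these windows SB431542 regions were at least as many as DMSO regions.

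SMAD2 regions were absent from most of the PAX6 gene body. With flanks of 50 kb there were 13, or 9.76 per 100 kb (5.20 to 16.7) against 13.8 over the list, and 8.71% of the windows held as few or fewer. They were outnumbered by the 17 TEAD4 regions of the same cells, and a SMAD2 deficit of 4 or more was found in 5.07% of windows, where SMAD2 had a median of 7 more. The direction turned with wider flanks, with 27 SMAD2 against 25 TEAD4 regions at 100 kb and 61 against 48 at 200 kb. SMAD2 density at PAX6 was 1.88 per 100 kb with flanks of 10 kb and 14.1 with flanks of 200 kb. From 31808550 to 31850650, a stretch of 42.1 kb that includes the start and most of the gene body, the SMAD2 list was empty, while TEAD4 had 4 regions there in DMSO cells and 6 in SB431542 cells. Stretches this long made up 2.41% of the SMAD2-free length on chromosome 11. The single SMAD2 region in the gene body, chr11:31808351-31808549 (row 217268, 51.7%), lies near its 3′ end. The best-ranked SMAD2 region, and the only one in the first 10% of rows, was chr11:31769751-31769949 (row 4209, 1.00%, block of rows 4059 to 4233). It was 69.7 kb from the PAX6 start, beyond the 3′ end, on the side where RefSeq places ELP4, a subunit of the Elongator complex. The nearest TEAD4 regions were 7.95 kb (DMSO) and 3.17 kb (SB431542) from it. In RefSeq, ELP4 and the antisense RNA gene PAX6-AS1 both overlap the span of PAX6, so a region here cannot be tied to one of these genes by position.

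**Figure D3:**
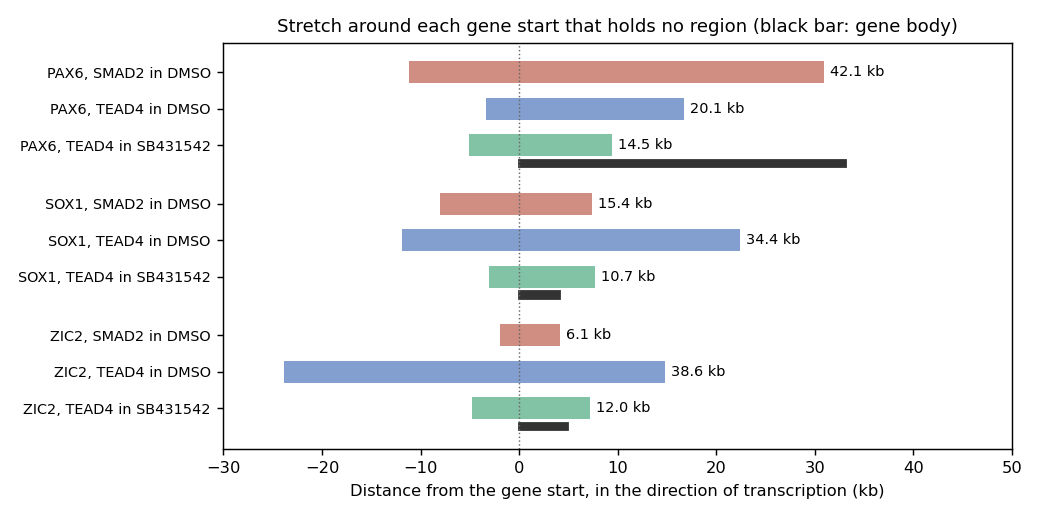
The stretch around each gene start that holds no region, for each gene and list, in kb from the start along the direction of transcription; the black bar is the gene body. The SMAD2-free stretch at PAX6 (42.1 kb) and the stretches free of TEAD4 in DMSO cells at ZIC2 (38.6 kb) and SOX1 (34.4 kb) are the longest of the 9.

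SOX1 was the gene whose body held no region of any list and whose DMSO lists had no leading region in the locus. The stretch free of all 3 lists ran from 112718871 to 112729300, 10.4 kb, and 16.3% of the length of chromosome 13 that holds no region lay in stretches as long. None of the 21 SMAD2 regions (0%, exact upper bound 16.1%) and none of the 7 TEAD4 regions of DMSO cells (0%, upper bound 41.0%) was in the first 10% of rows. The best placed were SMAD2 at chr13:112742501-112742699 (row 82601, 19.6%) and TEAD4 at chr13:112694901-112695099 (row 100874, 34.9%). With so few regions, the upper bounds do not separate SOX1 from a list's 10.0%.

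Under SB431542, SOX1 had 11 TEAD4 regions. Of these, 2 (18.2%, exact interval 2.28 to 51.8%) were in the first 10% of rows, where 10.0% of the list lies by definition. They were chr13:112682607-112682804 (row 5892, 2.25%, block of rows 5357 to 6088), 39.2 kb upstream, and chr13:112758150-112758621 (row 6095, 2.33%, block of rows 6092 to 6095), 36.5 kb downstream, which at 472 bp was the widest of the 120 regions. Neither overlapped a TEAD4 region of DMSO cells, as 6.39% of the SB431542 list did. The gaps to the nearest one were 7.71 and 11.0 kb, and whether such gaps are unusual was not tested. The first was 207 bp from a SMAD2 region of DMSO cells, chr13:112682251-112682399 (row 87009, 20.7%). The region nearest to the SOX1 start in any list was also TEAD4 under SB431542, at chr13:112718673-112718870 (row 35698, 13.6%), 3.14 kb upstream. The nearest SMAD2 region was 7.49 kb downstream and the nearest TEAD4 region of DMSO cells 12.0 kb upstream.

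By number, SOX1 was on the SMAD2 side. The 21 SMAD2 regions are 20.2 per 100 kb (12.5 to 30.8) against 13.8 over the list, and 11.2% of 923 windows on chromosome 13 held as many or more. The 7 TEAD4 regions of DMSO cells are 6.72 per 100 kb (2.70 to 13.9) against 9.53, and 19.9% of windows held as few or fewer. A SMAD2 excess over TEAD4 of 14 or more occurred in 4.01% of windows, where the median excess was 5. The 11 SB431542 regions are 10.6 per 100 kb (5.27 to 18.9) against 8.62, and 31.6% of windows held as many or more. They were 4 more than in DMSO cells, a difference reached in 14.6% of windows. At ZIC2 the SMAD2 excess was 6, a difference reached in 44.6% of windows. These 3 loci were not tested against each other. RefSeq places the overlapping transcript gene SOX1-OT across SOX1, and SPACA7 is the next coding gene downstream.

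**Figure D4:**
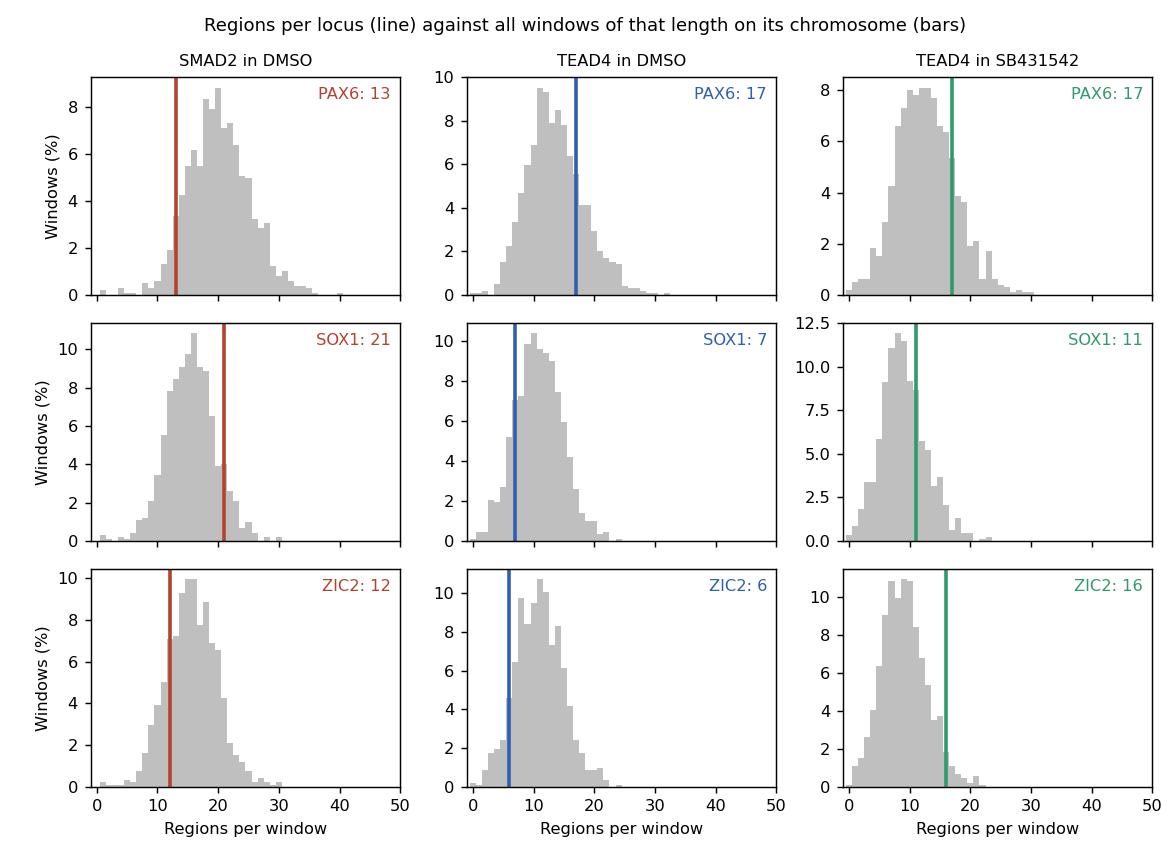
Number of called regions in each locus (coloured line) beside the share of all windows of the same length on the same chromosome that hold each number (grey bars), for each gene (rows of panels) and list (columns). The SB431542 line at ZIC2 stands at 16, which 4.92% of windows reach, and the SMAD2 line at PAX6 stands at 13, to the left of most windows.

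Overlap between the lists was rare in the 3 loci, as it was in the lists as a whole. SMAD2 and TEAD4 in DMSO cells shared 1 place, at PAX6, 15.1 to 15.2 kb upstream of the start: chr11:31854501-31854699 (row 117522, 27.9%) and chr11:31854601-31854849 (row 101746, 35.2%) overlapped by 99 bp. That is 1 of 46 SMAD2 regions (2.17%, exact interval 0.055 to 11.5%), against 5.29% of the whole SMAD2 list, and 1 of 30 TEAD4 regions (3.33%, 0.084 to 17.2%), against 7.67%. The TEAD4 lists of the 2 treatments shared the 2 places already described, at ZIC2 and at PAX6, 2 of 30 DMSO regions (6.67%, 0.818 to 22.1%) against 5.69% and 2 of 44 SB431542 regions (4.55%, 0.555 to 15.5%) against 6.39%. Without the widest 1% of regions the ZIC2 pair was lost, leaving 3.33% of the DMSO and 2.38% of the SB431542 regions. SMAD2 in DMSO cells and TEAD4 in SB431542 cells shared 2 places. At PAX6 these were chr11:31773051-31773249 (row 97597) and chr11:31773122-31773290 (row 124432), with 128 bp in common, and at SOX1 chr13:112736001-112736149 (row 155943) and chr13:112736063-112736177 (row 235980), with 87 bp. They are 4.35% (0.531 to 14.8%) of the SMAD2 regions, against 3.39%, and 4.55% of the SB431542 regions, against 5.46%. Every interval includes the share of the whole list. No region was called in all 3 lists, and only the ZIC2 pair had both partners in the first 10% of rows.

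Regions within 500 bp of each other, overlapping ones included, were also counted. Between SMAD2 in DMSO cells and TEAD4 in SB431542 cells, 9 of 46 SMAD2 regions (19.6%, 9.36 to 33.9%) had such a neighbour, against 12.4% of the list, and 10 of 44 SB431542 regions (22.7%, 11.5 to 37.8%) did, against 19.7%. For SMAD2 and TEAD4 in DMSO cells the same rule gave 4 of 46 (8.70%, 2.42 to 20.8%) against 15.4%. Among them was a pair at SOX1, where SMAD2 at chr13:112695201-112695449 (row 150641) began 101 bp beyond TEAD4 at chr13:112694901-112695099. That TEAD4 region was the best placed of the DMSO list in the locus, though only at row 100874 (34.9%). Between the TEAD4 lists, 5 of 30 DMSO regions (16.7%, 5.64 to 34.7%) had a neighbour that near, against 14.7%. At ZIC2, 0 of the 12 SMAD2 regions lay within 500 bp of a TEAD4 region of DMSO cells (exact upper bound 26.5%). All of these intervals include the share of the whole list.

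By their place in the lists, the loci as a group were close to average. In the first 10% of rows were 5 of 46 SMAD2 regions (10.9%, 3.62 to 23.6%), 4 of 30 TEAD4 regions of DMSO cells (13.3%, 3.76 to 30.7%) and 7 of 44 TEAD4 regions of SB431542 cells (15.9%, 6.64 to 30.1%), against 10.0% of each list. The median row stood at 38.7%, 44.4% and 43.4% of the list. Within TEAD4 in DMSO cells the medians ran from 21.7% at ZIC2 over 35.2% at PAX6 to 57.4% at SOX1, and within SMAD2 from 33.8% at ZIC2 over 37.1% at PAX6 to 42.5% at SOX1. In the SB431542 list SOX1 came first, at 40.8%, before ZIC2 at 45.0% and PAX6 at 49.3%. The rows behind these medians lie where width falls along that list, so this order need not measure strength. Wider flanks turned the order for TEAD4 in DMSO cells, with ZIC2 at 46.5%, PAX6 at 35.2% and SOX1 at 34.9% for 100 kb, and 37.6%, 35.2% and 33.7% for 200 kb. For SMAD2, PAX6 came last with flanks of 100 kb, at 46.0%, after SOX1 at 37.1% and ZIC2 at 34.9%. In the SB431542 list, PAX6 came first with flanks of 200 kb, at 47.5%, before SOX1 at 47.8% and then ZIC2. Ranked by region width, SMAD2 ran from PAX6 at 23.7% over SOX1 at 48.6% to ZIC2 at 65.0%. Width put ZIC2 first in both TEAD4 lists, at 24.7% (DMSO) and 41.3% (SB431542). The rows of the 3 loci overlapped in every list, and with 6 to 21 regions a locus these orders are descriptions.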

How the data were processed

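ChIP-seq regions of WA09 cells were analysed from the authors' deposited lists for SMAD2 (DMSO) and TEAD4 (DMSO or SB431542), tied to samples by the target and treatment in their names. The deposited columns hold a chromosome, start and end in bp (unit: other). Per the submitters' processing notes, positions are on hg19. The sources used here give no aligner, caller, threshold, control library or depth. Starts were raised by 1 bp, and overlap means at least 1 bp.

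The members, gene lists and comparisons were chosen with earlier results of these data known. Named regions are, in each locus and list, the one with the lowest row and the one nearest to the gene start, and those in the first 10% of rows, in a gene body or shared between lists. Windows tile a chromosome from its first base, without windows empty in all lists. Empty stretches of 1 Mb or more were left out. Intervals are exact (Clopper-Pearson or Poisson), 95%, and cover counting error only. Functions were tested on simulated data. Alternatives changed the flank, overlap rule, width, list length and rank. Strands come from RefSeq. Python 3.11.15, NumPy 2.4.6, pandas 2.3.3, SciPy 1.17.1 and matplotlib 3.10.9 were used.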

Additional observations from a re-analysis of the deposited data

How the results depend on the processing

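Values are given in the order SMAD2, TEAD4 in DMSO and TEAD4 in SB431542, over the 3 loci. Counts of 46, 30 and 44 regions became 9, 7 and 16 with flanks of 10 kb, 78, 51 and 80 with 100 kb, 174, 108 and 155 with 200 kb, 26, 17 and 25 in the first 50% of rows and 5, 4 and 7 in the first 10%, as longer windows and shorter lists give by construction. Density (13.4, 8.76 and 12.9 per 100 kb) fell by construction to 7.60, 4.97 and 7.30 in the first 50% of rows and to 1.46, 1.17 and 2.05 in the first 10%. With flanks of 10 kb SMAD2 density was 8.80, the cause of which was not tested. The median row of TEAD4 in DMSO (44.4%) was 27.8% with flanks of 10 kb and 24.7% when ranked by width, and the cause was not tested. The overlap of SMAD2 with TEAD4 in DMSO, 1 region, was 0% of both lists with 50% of both regions, with midpoints within 100 bp and with flanks of 10 kb. With flanks of 10 kb, which hold fewer regions, 0% of either TEAD4 list overlapped the other, and 0% of SB431542 regions overlapped SMAD2. From the other side, 11.1% of SMAD2 regions overlapped an SB431542 region, a value within its interval. The 2 sides differ because the SMAD2 region of the SOX1 pair touches the flank and its SB431542 partner does not. Counting regions within 500 bp raised the overlap of SMAD2 with TEAD4 in SB431542 to 19.6% and, from the other side, 22.7%. In the first 10% of rows the region nearest to the start was 36.5 kb away at SOX1 and 5.49 kb at ZIC2. In all, 68 values over the loci stayed within their intervals or within 1.5 times the count. For single loci and window shares, 89 values moved past these limits and 232 did not. Ranks by block and windows of all chromosomes were added after seeing the data. No paired analysis was possible because the groups hold 1 library each, which also left none to omit. Depth is unknown, so a region missing from a list was not detected at an unstated threshold.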
